A study of Mus musculus with 8 samples.

Results

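Nptx1, Nptx2 and Nptxr are the 3 neuronal pentraxin genes, and their levels were followed in embryonic mouse hypothalamus with and without a working Foxd1 gene. Foxd1 encodes a forkhead transcription factor, and the study asks what anterior hypothalamic neurons need it for. A row was counted as a member where its gene symbol equalled one of the 3 names, and rows with the same symbol were summed. That rule found 3 members among 24002 symbols in the E17.5 tables and 2 members, Nptx1 and Nptx2, among 23440 symbols in the E12 tables. At E12 Nptxr has no row of its own, because it is joined with Npcd and Cbx6 in a single row. The members were chosen by their FPKM levels over the stages and their mutant-against-wild-type differences within each stage, so both are given here as a description, without a test.

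The 8 libraries were 4 wild-type and 4 Foxd1-mutant. Each genotype had 1 library at E12.0, 1 at E12.5 and 2 at E17.5, where E counts days of embryonic age. The labels speak of 8 Foxd1-null and 10 control embryos in all and of pooled RNA, but the number of embryos in each pool, their strain and how the Foxd1 allele was made are not given in the sources used here. The control embryos are described in a way that could include carriers of the mutation, and the genotype used here is the one in each library's source name. Nothing says that the pools came from separate litters, so the spread between libraries may be partly technical.

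Foxd1 itself checked the labels. In FPKM, the fragments per kilobase of transcript scaled to library depth, it stood at 24.95 in the wild-type and 2.77 in the mutant library of E12.0, and at 30.3 and 2.497 in those of E12.5. At E17.5 the wild-type libraries held 3.90 and 1.96 FPKM and the mutant libraries 0.396 and 0.230. Of 12 hypothalamic marker genes, all were above 0 in both genotypes at E17.5, while some late peptide genes such as Oxt were listed at 0 at E12. Depth, estimated from the spacing of the lowest FPKM values, was 30500000 to 43000000 fragments per library at E17.5, where 79.3% to 80.4% of those values lay within 0.1 of a whole fragment. At E12 only 30.4% to 41.2% did, so depth is not known there. Mutant replicate 2 stands apart from the other E17.5 libraries, with Pearson correlations across genes of 0.987 to 0.988 with them, against 0.992 to 0.994 among the other 3 (13235 genes, which are not independent replicates).

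Neuronal pentraxins are synaptic proteins of the pentraxin family, whose members share a C-terminal domain that assembles into rings. Nptx1 and Nptx2 (also called NP1 and Narp) are secreted, and Nptxr is anchored in the membrane and can be released by the protease Adam17. The 3 proteins form mixed complexes that gather AMPA-type glutamate receptors at excitatory synapses. Nptx2 is an activity-induced gene, and in the adult hypothalamus it is known from orexin neurons of the lateral area.

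The 3 genes are related but distinct in sequence. In the coding part of their transcripts, 68.9% of aligned bases were identical between Nptx1 and Nptx2, 65.2% between Nptx1 and Nptxr, and 66.0% between Nptx2 and Nptxr. The longest exact run shared by any pair was 19 bases, between Nptx2 and Nptxr, which is shorter than the 100 sequencing cycles of each read. The stretch of 48 coding bases most alike in all 3 genes is shown to let the members be compared. Capitals mark the 34 bases that are the same in the 3 genes, and the sequences are from GENCODE M21 transcripts on GRCm38, 5′ to 3′ on the coding strand.
Nptx1 (chromosome 11, minus strand, coding bases 802 to 849): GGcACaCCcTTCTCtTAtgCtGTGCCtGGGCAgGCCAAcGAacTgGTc
Nptx2 (chromosome 5, plus strand, coding bases 787 to 834): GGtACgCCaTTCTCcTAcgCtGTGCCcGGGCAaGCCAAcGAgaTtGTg
Nptxr (chromosome 15, minus strand, coding bases 982 to 1029): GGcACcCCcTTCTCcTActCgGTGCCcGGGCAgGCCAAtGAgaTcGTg

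Nptxr differs from the other two in its neighbourhood. Cbx6, which encodes a chromobox protein of the Polycomb group, lies upstream on the same strand of chromosome 15, and Npcd is a read-through gene that joins Cbx6 exons to the pentraxin exons of Nptxr. The deposited E17.5 tables list Nptxr as NM_030689, Npcd as NM_001013360 and NM_001013362, and Cbx6 as NM_028763. In the GENCODE models of these accessions, 890 of the 4948 bases of Nptxr are also in Npcd, in 4 of its 5 exons. These bases make up 76.6% of NM_001013360 and 61.3% of NM_001013362. The gene models on the mm9 build that the submitters used are not at hand and may differ in their ends.

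The junction into the first shared exon is what tells the transcripts apart at that point, so it is shown for each. Lower case marks the last 20 bases of the exon before, which differs between them, and capitals mark the first 20 bases of the shared exon, all coding.
Nptxr NM_030689 (transcript bases 716 to 755, exon 1 into exon 2): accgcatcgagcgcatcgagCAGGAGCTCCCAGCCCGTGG
Npcd NM_001013360 (transcript bases 253 to 292, exon 4 into exon 5): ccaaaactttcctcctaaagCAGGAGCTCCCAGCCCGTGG
Npcd NM_001013362 (transcript bases 544 to 583, exon 5 into exon 6): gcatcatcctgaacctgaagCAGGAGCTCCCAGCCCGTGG
A fragment inside the shared exons fits all 3 transcripts, so the separate FPKM values depend in part on how such fragments are divided between them. The other 4058 bases of Nptxr are not in Npcd.

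**Figure D1:**
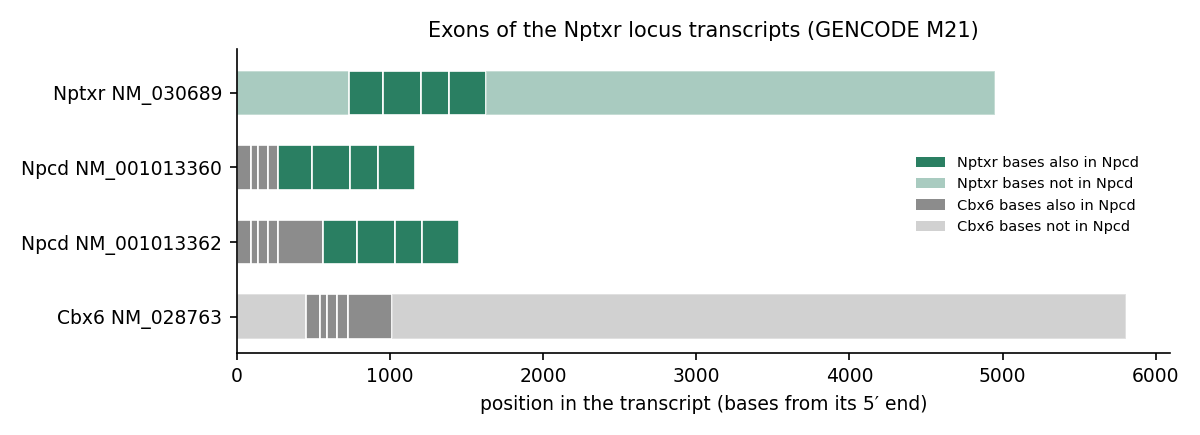
Exons of Nptxr, of both Npcd transcripts and of Cbx6, drawn to scale by position in the transcript in bases. Green bases belong to Nptxr exons, grey bases to Cbx6 exons, and full colour marks those that are also in Npcd, which are 890 of the 4948 bases of Nptxr.

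The secreted members are given first. For Nptx1 the E12.0 libraries held 5.94 FPKM (wild-type) and 4.41 (mutant), and the E12.5 libraries 6.62 and 5.71. At E17.5 the wild-type libraries held 5.98 and 5.97 and the mutant libraries 5.31 and 4.82. The mutant value was the lower at each stage, and at E17.5 the genotypes did not overlap. The mean was 5.98 ± 0.00692 FPKM in wild-type and 5.07 ± 0.342 in mutant (SD, n = 2 each), or 15.2% lower in mutant. On the scale of log2(FPKM + 1) the difference was -0.20 with a standard error of 0.073 from limma's fit. The E12.0 pair of libraries differed by -0.36 and the E12.5 pair by -0.18, a mean of -0.27 (standard error 0.15).

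Nptx1 varied less with age than Nptx2, the only other member with a value of its own at E12. Wild-type E12.5 was at 1.11 times the level of E12.0, and wild-type E17.5 at 0.903 times that of E12.5. Ratios between E12 and E17.5 cross tables of different make and are only described. Over 12519 genes the median difference in wild-type was 0.37 from E12.0 to E12.5 and 0.082 from E12.5 to E17.5, on the scale of log2(FPKM + 1).

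For Nptx2 the E12.0 libraries held 3.29 FPKM (wild-type) and 3.86 (mutant), and the E12.5 libraries 11.1 and 9.48. At E17.5 the wild-type libraries held 13.5 and 13.3 and the mutant libraries 10.9 and 9.49. The mutant library was thus the higher at E12.0 and the lower at E12.5, while at E17.5 both mutant libraries lay below both wild-type libraries. Mean FPKM at E17.5 was 13.4 ± 0.149 in wild-type and 10.2 ± 1.02 in mutant (SD, n = 2 each), or 24.0% lower in mutant. The log2 difference was -0.37 (standard error 0.078) at E17.5, and 0.18 and -0.21 at E12.0 and E12.5.

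Between E12.0 and E12.5 Nptx2 was at 3.38 times its earlier level in wild-type and at 2.46 times in mutant, with 1 library per point. Over that step the median of 12519 genes differed by 0.37 in wild-type and 0.35 in mutant, on the scale of log2(FPKM + 1). Small RNA genes took 20.8% (wild-type) and 15.9% (mutant) of summed FPKM for E12.0, then 15.9% and 7.83% for E12.5. The ratios were not rescaled for this. Wild-type E17.5 then stood at 1.21 times the level of E12.5. Relative to Nptx1 in the same library, Nptx2 stood at 0.554 (wild-type) and 0.875 times (mutant) for E12.0, then 1.68 and 1.66 times for E12.5. At E17.5 the ratio was 2.26 and 2.23 in wild-type and 2.06 and 1.97 in mutant. The order of the secreted members was therefore Nptx1 above Nptx2 in both E12.0 libraries and Nptx2 above Nptx1 in the other 6.

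For these secreted members, which each have a single row and transcript, the E17.5 values rested on an estimated 673 to 1373 fragments per library. Counting error alone would then be 2.70% to 3.85% of a value. The wild-type libraries differed by less than that, with replicate 1 at 1.002 times replicate 2 for Nptx1 and 1.02 times for Nptx2. Such closeness can occur with 2 libraries, and their SD is likely to understate the spread. Mutant replicates 1 and 2 lay 11.2% and 19.3% below the wild-type mean for Nptx1, and 18.6% and 29.3% below it for Nptx2.

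**Figure D2:**
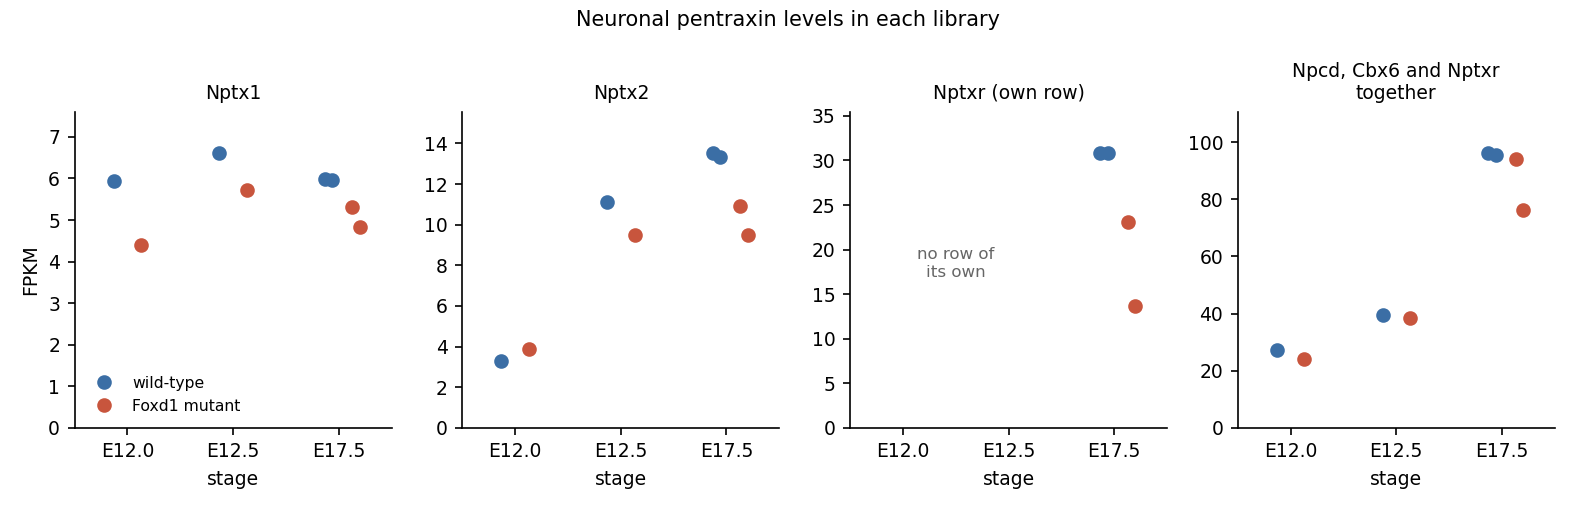
FPKM of Nptx1, Nptx2, Nptxr and the joined row of Npcd, Cbx6 and Nptxr, by stage, with 1 point per library and wild-type in blue, mutant in red. At E17.5 the joined row is the sum of the separate rows, and its mutant libraries are at 93.99 and 76.1 FPKM against 96.2 and 95.5 in wild-type.

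The membrane-bound member, Nptxr, had a row of its own at E17.5. It had 30.9 and 30.8 FPKM in the wild-type libraries against 23.1 and 13.6 in the mutant libraries. Both mutant libraries lay below both wild-type libraries, and they differed from each other by more than the wild-type libraries did. The mean was 30.8 ± 0.0491 FPKM in wild-type and 18.4 ± 6.73 in mutant (SD, n = 2 each), 40.4% lower in mutant. The log2 difference was -0.76 (standard error 0.22). It was -0.40 without mutant replicate 2 and -1.12 without mutant replicate 1.

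The rows joined with Nptxr at E12 did not follow it at E17.5. Npcd, both transcripts summed, had 26.3 and 26.9 FPKM in the wild-type libraries against 32.5 and 32.6 in the mutant libraries, so that it was the higher in both mutant libraries (log2 difference 0.28, standard error 0.049, limma adjusted p = 0.689). Its transcript NM_001013360 had 22.5 and 19.9 FPKM in the wild-type libraries against 31.6 and 19.0 in the mutant libraries. NM_001013362 had 3.73 and 7.01 against 0.925 and 13.6. Each transcript thus had a mutant library above and a mutant library below both wild-type libraries. Cbx6 had 39.1 and 37.8 FPKM in the wild-type libraries against 38.4 and 29.9 in the mutant libraries (log2 difference -0.18, standard error 0.12, limma adjusted p = 0.691), and its genotypes overlapped. Without mutant replicate 2 the Cbx6 difference was -0.0042, and without mutant replicate 1 it was -0.35.

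Nptxr and Npcd together, which hold the shared pentraxin exons, came to 57.1 and 57.7 FPKM in the wild-type libraries against 55.6 and 46.3 in the mutant libraries. Their sum was 11.2% lower in mutant, with a log2 difference of -0.17 against -0.76 for Nptxr alone. In mutant replicate 1 the sum lay 3.07% below the wild-type mean, while Nptxr alone lay 25.0% below it. Nptxr took 54.0% and 53.4% of that sum in the wild-type libraries, and 41.6% and 29.4% in the mutant libraries. In mutant replicate 2 the sum lay 19.4% and Nptxr alone 55.8% below the wild-type mean. On the FPKM scale, mutant replicate 1 thus differed from wild-type more in the division between Nptxr and Npcd than in their sum. Mutant replicate 2 differed in both. FPKM is per length, and the Nptxr transcript has 4948 bases against 1162 and 1453 in the Npcd transcripts. An equal FPKM therefore stands for more fragments of Nptxr than of Npcd, so the sum in FPKM is not a sum of fragments. Nptxr was lower and Npcd higher in both mutant libraries. On these lengths a sum of fragments would therefore lie further below wild-type than the sum in FPKM. The comparison of division with sum in mutant replicate 1 thus need not hold for fragments. Whether fragments of these genes were fewer or divided differently was not tested. Sums of these rows were looked at after the files had been seen. A sum differs less than its most extreme row almost by arithmetic, since its fold lies between the folds of its rows. Other joined loci are given under Other observations.

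**Figure D3:**
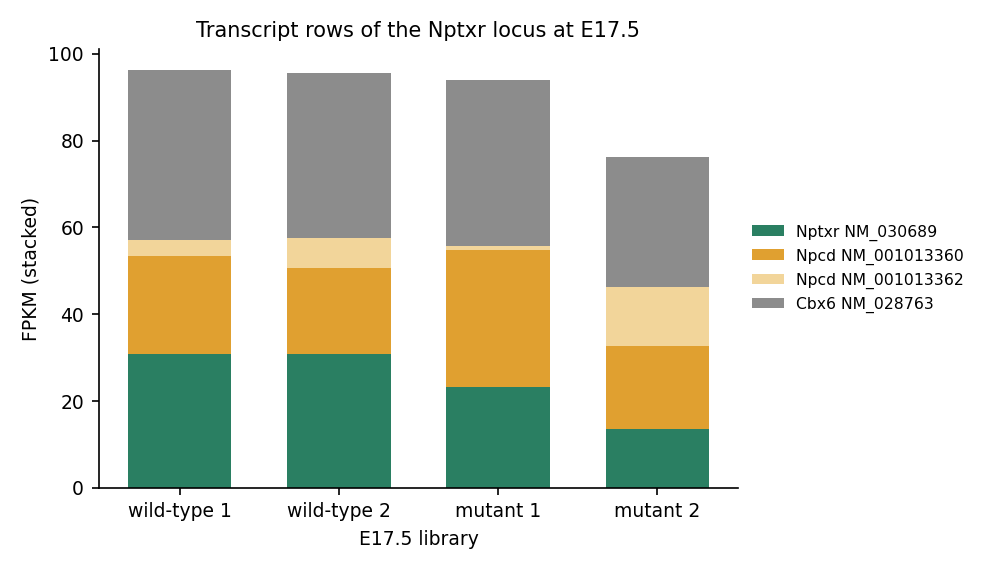
Stacked FPKM of the 4 transcript rows of the Nptxr locus in each E17.5 library. The green Nptxr part shrinks from 30.9 and 30.8 FPKM in wild-type to 23.1 and 13.6 in mutant, while the total is 96.2, 95.5, 93.99 and 76.1 FPKM.

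The joined row allows the locus to be followed over age. For Npcd, Cbx6 and Nptxr together the E12.0 libraries held 27.1 FPKM (wild-type) and 24.0 (mutant), and the E12.5 libraries 39.5 and 38.6. The E17.5 sums were 96.2 and 95.5 against 93.99 and 76.1. The mutant was the lower at each stage, by a log2 difference of -0.17 at E12.0, -0.036 at E12.5 and -0.18 at E17.5. The E17.5 value was -0.028 without mutant replicate 2 and -0.33 without mutant replicate 1. Wild-type E17.5 stood at 2.42 times wild-type E12.5, the largest such ratio of the 3 profiles. Whether Nptxr itself rose with age cannot be read from that row, since Cbx6 alone took 39.2% to 40.8% of it at E17.5.

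In order of level at E17.5, Nptxr stood above Nptx2 and Nptx2 above Nptx1 in all 4 libraries, on the FPKM scale, which is per length. No pair of neighbours in that order overlapped within a genotype. Nptxr was at 5.16 and 5.16 times Nptx1 in wild-type and at 4.36 and 2.82 times in mutant. Among genes at 1 FPKM or more in the same library, Nptxr was at percentile 78.6 and 78.4 in wild-type and 71.5 and 55.6 in mutant. Nptx2 was at percentile 55.4 and 54.8, then 48.4 and 44.2, and Nptx1 at 30.6 and 30.9, then 27.6 and 25.6.

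All 3 members had both mutant libraries below both wild-type libraries at E17.5, as did 22.2% of the 13235 genes tested. By size of the log2 difference in either direction, Nptxr ranked 50, Nptx2 236 and Nptx1 1127 among them. At E12 the mutant was below wild-type at both stages for Nptx1 and for the joined row, as it was for 21.8% of 11952 genes, while it was above at both stages for 25.9%. These contrasts chose the members, so nothing is read from the counts. In bulk tissue, fewer cells that express a gene and less RNA per cell cannot be told apart. Pan-neuronal markers had a summed FPKM of 2938 to 3065 in wild-type and 2841 to 2984 in mutant at E17.5, and 4 of 12 had lower values in mutant. At E12 they summed to 1298 and 1287 at E12.0 and to 2151 and 1973 at E12.5, in wild-type and mutant, and 11 of 12 had a lower mean in mutant. Their part in the differences of Nptx1 and Nptx2 was not tested.

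Summed markers of neighbouring tissue also differed between the genotypes. The 10 telencephalon markers summed to 38.2 to 40.1 FPKM in wild-type, 43.1 in mutant replicate 1 and 96.9 in mutant replicate 2, and none was at 0 in either genotype. The 12 hypothalamic markers summed to 196 to 241 FPKM in wild-type and 144.0 to 144.1 in mutant, and 9 of 11 tested had lower values in mutant (median -0.52). Avp, the vasopressin gene, had 71.6 and 62.1 against 9.38 and 3.43 FPKM, and the other 11 markers summed to 169.8 and 134.3 against 134.6 and 140.6, so without Avp the sums overlapped. Those sums include Pomc, which had 38.9 and 11.3 against 18.6 and 41.4 FPKM. Taken singly, 8 of the 11 tested markers, Avp among them, had both mutant libraries below both wild-type libraries, and 1 had both above. Of all genes, 22.2% and 20.9% had so. In wild-type and mutant, the telencephalon sums were 56.0 and 38.6 for E12.0 and 30.4 and 36.2 for E12.5, where Emx1 was at 0 in mutant. The hypothalamic sums were 192 and 128, then 203 and 214. The 6 thalamus markers summed to 80.1 and 70.5 for E12.0 and to 86.0 and 48.8 for E12.5, and all 6 had a lower mean in mutant at E12 (median -0.57). Among them, Tcf7l2 had 19.6 and 4.90 FPKM and Gbx2 had 8.20 and 0.630 for E12.5. At E17.5 the thalamus sums were 47.1 to 51.7 in wild-type and 48.5 to 50.1 in mutant. Of 7 oligodendrocyte lineage markers 6 had lower values in mutant at E17.5 (median -0.20), and of 5 markers of the meninges 1 had (median 0.37). Their part in the pentraxin differences was not tested. Without mutant replicate 2 the log2 differences were -0.15 for Nptx1, -0.27 for Nptx2 and -0.40 for Nptxr.

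Genes related to the neuronal pentraxins were then examined across 8 lists with 74 genes in all, of which 57 passed the filter of a mean of at least 1 FPKM at E17.5. All genes of these lists are called partners for short, which does not mean that each binds a pentraxin. By limma, none of the 57 passed the adjusted threshold of 0.05 in either direction, as 0.00756% of all tested genes did. At unadjusted p under 0.05 there were 7, of which 5 were lower and 2 higher in mutant, against 3.52% and 2.18% of all genes in those directions and 5.7% in either. The median log2 difference of the 57 was -0.031, against 0.0028 for all genes. At E12 none of 42 tested partners passed the adjusted threshold, as 0.0335% of all genes did, and 3 did so at unadjusted p under 0.05, of which 2 were lower and 1 higher. Of all genes tested at E12, 1.41% did so, 0.803% lower and 0.602% higher.

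AMPA receptor pore subunits are the targets of pentraxin clustering, and 3 of the 4 had higher values in mutant at E17.5 (median 0.065). Gria2 was the most abundant, at 83.4 and 88.7 FPKM in the wild-type libraries against 89.2 and 91.1 in the mutant libraries. Gria1 had 38.8 and 39.1 against 39.3 and 42.2. Gria3 had 9.41 and 10.6 against 11.6 and 12.2, the largest difference of the subunits (log2 difference 0.23, standard error 0.076, limma adjusted p = 0.689, and 0.15 without wild-type replicate 1). Gria4 had 43.3 and 47.3 against 45.2 and 44.2, with a log2 difference of -0.018 whose sign turned with quantile normalization and with small RNA genes left out. In those 3 subunits both mutant libraries lay above both wild-type libraries, as in 20.9% of all genes. None passed the adjusted threshold, and 1 was higher at unadjusted p under 0.05.

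Among 13 auxiliary AMPA receptor subunits, 12 were tested and 7 had lower values in mutant (median -0.043). Syndig1, a transmembrane protein of excitatory synapses, had 9.06 and 10.4 FPKM in the wild-type libraries against 7.39 and 7.38 in the mutant libraries (log2 difference -0.35, limma adjusted p = 0.689). Cnih2, a cornichon protein that slows AMPA receptor closing, had 184 and 178 against 172 and 149, a log2 difference of -0.17 that was -0.075 without mutant replicate 2. Cacng3, a relative of stargazin, had a log2 difference of 0.13, which was 0.025 without mutant replicate 2 and 0.24 without mutant replicate 1. None passed the adjusted threshold and Syndig1 was the 1 gene at unadjusted p under 0.05.

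The other secreted and adhesive synapse organizers had lower values in mutant in 15 of 18 tested genes (median -0.051), with none past the adjusted threshold and 2 lower at unadjusted p under 0.05. Cbln1, a C1q-family protein that bridges neurexin to the delta-type receptors, had 63.4 and 63.1 FPKM in the wild-type libraries against 51.3 and 48.5 in the mutant libraries (log2 difference -0.34, standard error 0.052, limma adjusted p = 0.689). C1ql2, of the same family, had 2.23 and 2.59 against 1.60 and 1.31 (log2 difference -0.47). Nrxn2, a presynaptic neurexin, had 71.7 and 74.8 against 70.1 and 55.4, a log2 difference of -0.23 that was -0.063 without mutant replicate 2.

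Of 5 genes for shedding and binding of pentraxins, 1 had a lower value in mutant (median 0.070) and none passed the adjusted threshold or an unadjusted p under 0.05. Rcn2, a calcium-binding protein of the secretory pathway that binds neuronal pentraxins, had 88.6 and 90.1 FPKM in the wild-type libraries against 83.5 and 81.5 in the mutant libraries. The complement genes C1qb and C1qa, made by microglia, had log2 differences of 0.14 and 0.11. These were 0.035 for C1qb without wild-type replicate 2 and 0.025 for C1qa without mutant replicate 1. In the wider pentraxin family Crp, Apcs and Ptx4 did not pass the filter, and Ptx3, an inflammatory long pentraxin, had 3.91 and 3.44 against 2.70 and 4.46, so its genotypes overlapped. At E12 the Ptx3 values were 24.9 (wild-type) and 21.5 FPKM (mutant) for E12.0, then 27.5 and 26.4 for E12.5.

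Of 9 perineuronal matrix genes, 5 were tested, with none past the adjusted threshold and 1 higher at unadjusted p under 0.05 (median -0.054). Bcan, a brain proteoglycan, had 28.6 and 28.5 FPKM in the wild-type libraries against 27.2 and 20.3 in the mutant libraries, a log2 difference of -0.27 that was -0.070 without mutant replicate 2. Vcan, the proteoglycan versican, had 18.9 and 17.8 against 19.9 and 23.4, a difference of 0.22 that was 0.11 without mutant replicate 2. Hapln3, a link protein, had 1.504 and 1.70 against 2.08 and 1.72, a difference of 0.16 that was 0.067 without mutant replicate 1. Of 16 activity-induced genes, the class to which Nptx2 belongs, 9 were tested, and none was past the adjusted threshold or an unadjusted p under 0.05 (median 0.061). Nr4a3 (0.20), Nr4a2 (0.13) and Homer1 (0.11) had the largest differences, with genotypes that overlapped in each. Those values turned sign for Nr4a3 and Homer1 without mutant replicate 2, and for Nr4a2 when only the highest transcript row was kept. Nr4a2 was at 0.036 without wild-type replicate 1.

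All 3 genes of the orexin neuron list had both mutant libraries below both wild-type libraries at E17.5, as did 22.2% of all genes (median -0.29), with none past the adjusted threshold and 2 lower at unadjusted p under 0.05. Hcrt, the orexin precursor, had 9.12 and 7.57 FPKM in the wild-type libraries against 5.74 and 3.91 in the mutant libraries, a log2 difference of -0.70 (standard error 0.17, limma adjusted p = 0.689). Pdyn, the prodynorphin gene, had 10.3 and 9.74 FPKM in the wild-type libraries against 9.08 and 6.99 in the mutant libraries, a log2 difference of -0.29 that was -0.13 without mutant replicate 2. Lhx9, a LIM-homeodomain regulator, differed by -0.087, or by -0.048 without wild-type replicate 2, and the sign turned when the highest transcript row was kept. Hcrt also counts among the hypothalamic markers and Lhx9 among the thalamus markers given above, so these lists overlap. At E12.0 Hcrt was listed at 0 in both genotypes, where Nptx2 was at 3.29 and 3.86 FPKM.

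**Figure D4:**
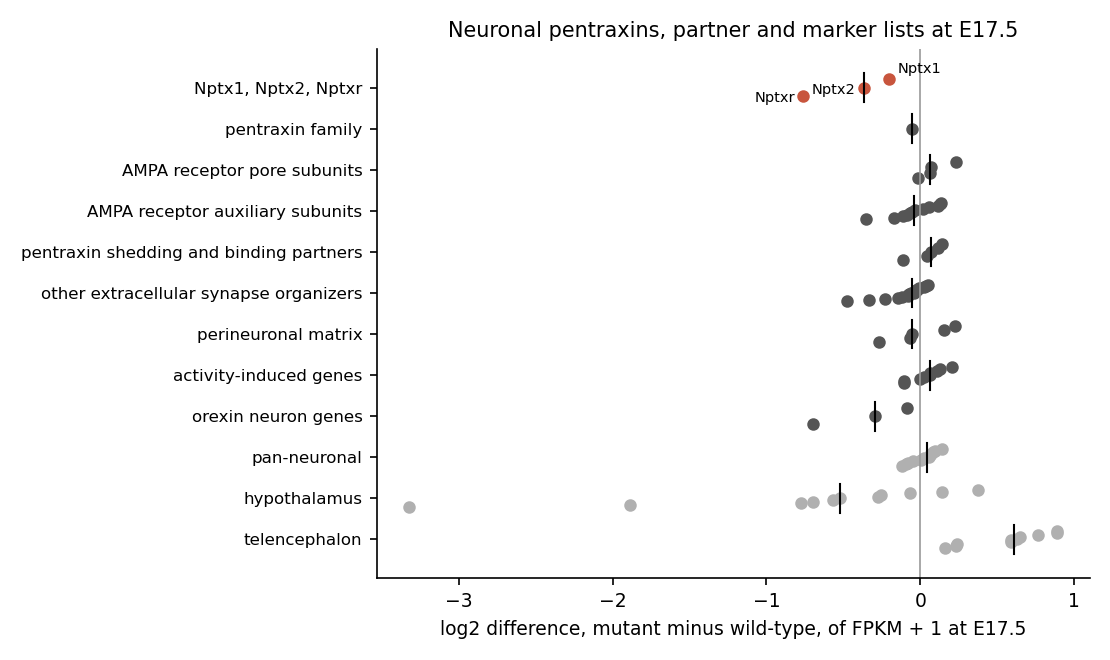
Log2 difference, mutant minus wild-type, of FPKM + 1 at E17.5 for the 3 neuronal pentraxins in red, the partner lists in dark grey and 3 marker lists in light grey, with 1 point per tested gene and a bar at each list's median. Nptxr lies at -0.76, Nptx2 at -0.37 and Nptx1 at -0.20, while the medians of the partner lists lie between -0.29 and 0.070.

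A test of whether the genotype difference changed between E12 and E17.5, by limma over all 8 libraries, called 0.032% of 12519 genes at the adjusted threshold and none of the partners, of which 4 were at unadjusted p under 0.05, against 3.95% of all genes. For the members the difference between the effects is only described. It was 0.068 (standard error 0.12) for Nptx1 and -0.35 (standard error 0.17) for Nptx2, and Nptxr has no value because of the joined row.

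The genes nearest in profile were found by the root mean square difference over the 8 libraries of log2(FPKM + 1), each gene's mean taken off, among 11410 candidates. The libraries share stages and tables, so the measure takes in age as well as genotype. Nearest to Nptx1 were Fbxl18 (0.053), Fbxl16 (0.057), Tmem256 (0.060), R3hdm4 (0.066) and Zdhhc8 (0.069), and Nptx1 itself had a root mean square of 0.15 about its mean. Fbxl16, wild-type before mutant, had 25.6 and 18.9 FPKM for E12.0, 28.4 and 26.0 for E12.5, and 27.0 and 27.0 against 24.98 and 23.4 for E17.5. Nearest to Nptx2 were Enho (0.13), Pqlc1 (0.15), Oprl1 (0.15), Tuba1a (0.15) and Gpr27 (0.15), against 0.64 for Nptx2 about its mean. Oprl1 encodes the nociceptin receptor and Tuba1a an alpha-tubulin of young neurons. Enho, the precursor of the peptide adropin, had 20.9 and 26.3 FPKM for E12.0, 57.3 and 47.2 for E12.5, and 60.3 and 60.2 against 57.5 and 46.0 for E17.5, with the higher mutant value at E12.0 that Nptx2 had.

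Nearest to the joined row of Npcd, Cbx6 and Nptxr were Adcyap1r1 (0.047), Osbpl10 (0.051), Atp6v0e2 (0.062), Adcy5 (0.065) and Rnf208 (0.066), among 11411 candidates and against 0.78 for the row about its mean. Adcyap1r1 is the receptor of the neuropeptide PACAP, and it had 8.55 and 8.09 FPKM for E12.0, 12.7 and 12.8 for E12.5, and 31.4 and 32.0 against 30.2 and 26.5 for E17.5. With Pearson correlation in place of the distance, 5 of 5 neighbours of Nptx1, 0 of 5 of Nptx2 and 4 of 5 of the joined row were among the nearest 20. With stage means taken off, so that only differences within a stage count, those numbers were 1, 0 and 0.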

How the data were processed

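RNA of pooled hypothalamic tissue was sequenced with 100 cycles on a HiSeq 2500, per the labels' protocols. The authors deposited FPKM, made with TopHat and Cufflinks on build mm9, per the submitters' processing notes, without versions. The E12 tables give FPKM per gene and join 212 sets of overlapping symbols into single rows, while the E17.5 tables give 1 row per transcript. Rows without a gene name (8 per E12 table, 0.0285% to 0.0360% of FPKM) were left out.

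Rows were summed by symbol, taken as log2(FPKM + 1), and tested where the mean was at least 1 FPKM, with limma 3.58.1 in R 4.3.3 (variance trend, two-sided, Benjamini-Hochberg over all genes, threshold 0.05). E17.5 used 4 libraries, E12 used 4 and a stage term, and all 8 entered the fit for the difference of effects. FPKM allow no count model, and a fold on this scale understates the change of low genes. The methods were tested on simulated data. Depth was estimated from genes with 1 transcript over 2500 bases, counting up to 5 fragments. Sequences came from GENCODE M21 by accession (Biopython 1.88), and the promoter table held 0 of 3 members.

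The members and lists were chosen with earlier results of these data known. Besides members and Foxd1, the text names all AMPA receptor pore subunits, up to 3 tested genes per other partner list with the largest difference at E17.5, and the 5 genes nearest to each member in profile, without predicted, small RNA and X- or Y-linked genes. Alternatives changed the pseudocount, filter, scaling, trend, row joining, blocks and libraries.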

Additional observations from a re-analysis of the deposited data

How the results depend on the processing

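Nptx1 and Nptxr at E17.5, Nptx2 at E17.5, and Nptx1 and the joined row at E12 kept a lower value in mutant under every alternative run. Leaving out each E17.5 library gave -0.26 to -0.15 for Nptx1, -0.46 to -0.27 for Nptx2 and -1.12 to -0.40 for Nptxr, on the log2 scale. Pseudocount 5 gave -0.13 for Nptx1. Summing rows, chosen after seeing the data, gave -0.17 for Nptxr with Npcd and -0.18 for Nptxr with Npcd and Cbx6. The E12 value of Nptx2 (-0.015) was 0.18 at E12.0 alone and 0.014 with quantile normalization.

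Counts of called genes were unstable. At E17.5 the 1 call became 0 with a mean of at least 5 FPKM and with no filter, and 1 to 44 when each library was left out (10 without mutant replicate 2, 44 without mutant replicate 1, 4 without wild-type replicate 1), where a lone library is assumed to vary like the others. At E12 the 4 calls became 1 with no filter, no trend, pseudocount 5 or quantile normalization, and 78 with no stage block. For the difference of effects the 4 calls became 2 with the highest row of a symbol, 0 with a mean of at least 5 FPKM and with no filter, 1 with pseudocount 0.1 and with pseudocount 5, and 0 to 1 when each E17.5 library was left out. The cause was not tested.

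Whether replicate numbers pair the E17.5 libraries is not known. The correlation across genes of same-numbered deviations was 0.028, but 2 libraries per genotype are too few to decide it. Single genes went either way. From replicate 1 to 2, Col1a1 went from 53.8 to 35.5 FPKM in wild-type and from 47.3 to 30.7 in mutant. Pomc went from 38.9 to 11.3 in wild-type and from 18.6 to 41.4 in mutant. A shared batch was not tested. With the replicate block 16 genes were called at E17.5, of which 1 was in the 8 lists, Hcrt of the orexin neuron list (limma adjusted p = 0.0188). The values that turned sign were Gria4 (0.0022 with quantile normalization, 0.038 with small RNA genes left out, -0.080 to 0.045 when each library was left out, positive without wild-type replicate 2), Ptx3 (0.23 without mutant replicate 1, 0.018 without wild-type replicate 1, -0.33 without mutant replicate 2), Homer1 (-0.013 without mutant replicate 2), Nr4a3 (-0.10 without mutant replicate 2, 0.51 without mutant replicate 1), and Lhx9 (0.096) and Nr4a2 (-0.25) with the highest row of a symbol.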

Other observations

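The E12 tables join overlapping symbols that the E17.5 tables list apart, so the Nptxr locus can be set beside other such loci. At E17.5, 49 joined loci had at least 2 symbols that were tested. Within a locus, the range between the lowest and the highest log2 genotype difference of its symbols had a median of 0.12. For Npcd, Cbx6 and Nptxr it was 1.05, which ranked 2 among the 49, after the locus of Snora34 and Mir1291. Symbols of 29 loci had differences of both signs, as here, where Nptxr was at -0.76 and Npcd at 0.28. In 46 of the 49 loci the largest difference of a single symbol exceeded that of the summed locus in size. The medians of these sizes were 0.14 for the largest symbol and 0.075 for the sum. Both follow almost from arithmetic, since the fold of a sum lies between the folds of its parts, so nothing is read from them. These loci were compared after the data had been seen.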
